A study of Mus musculus with 16 samples.

Results

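Late mRNA loss was followed between 3 and 5 h of actinomycin D, a drug that blocks RNA synthesis, in mouse haematopoietic cells labelled Nat10-deficient. Nat10 acetylates cytidines in RNA, a modification called ac4C. The 2 libraries at 5 h were compared with the 2 at 3 h, which are 4 of the 16 libraries of the series, and every gene that passed a filter on low counts was tested, 25081 of 55414. The series holds wild type and Nat10-deficient cells at 0, 1, 3 and 5 h, with 2 libraries for each genotype and time. The sources give 5 µM actinomycin D for all libraries, also those at 0 h. They describe cells from lineage-depleted mouse bone marrow grown with stem cell factor and thrombopoietin. These were sorted at their time, so each time is a separate sort. The cell type label is LT-HSCs (long-term haematopoietic stem cells), while the titles name 32D, a myeloid progenitor line, and the genotype is written Nat10-/- in titles. Neither the age of the animals, the number pooled, the deleted part of Nat10 nor any Cre driver is given in the sources used here. The protocol calls the replicates biological, yet the headers of both files of each group name the same alignment. The p-values therefore measure only the spread between these files, which may be technical.

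When synthesis stops, each mRNA falls at its own rate. Transcripts of immediate-early genes are known to be short-lived, often through AU-rich elements in the 3′ untranslated region that recruit deadenylases, and transcripts for ribosomal proteins and mitochondrial enzymes are known to be long-lived. A stable mRNA makes up a growing share of what is left even when its own amount falls, so loss and share need separate scales. Each gene was therefore measured on a spike-in scale, relative to ERCC RNA (synthetic transcripts that, per the labels' protocol, were added to each RNA sample in equal amount), and on a share scale, relative to the counts of all genes other than immunoglobulin genes. CPM below are counts scaled to a common total of those non-immunoglobulin counts. Log2 fold changes are 5 h over 3 h, with standard errors, and adjusted p-values come from edgeR's quasi-likelihood test with Benjamini-Hochberg adjustment.

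The 4 libraries held 13516675 to 15401361 counts, of which 8560 to 19021 were ERCC counts. Nat10 was read at 130.3 and 133 CPM at 3 h, then 153 and 169 CPM at 5 h, a log2 change of 0.29 ± 0.048 in share and -0.30 ± 0.053 against the spike-ins. In wild type its mean CPM was 75.1 at 3 h and 48.0 at 5 h, so counts of the targeted gene were not reduced under the Nat10-deficient label, and whole-gene counts do not check a deletion of unstated extent. Directions below belong to the libraries as labelled. Of 12 stem cell markers, none was under 1 CPM at 3 h and 1, Slamf1, was at 5 h. The 5 early myeloid markers, among them Mpo and Elane of neutrophil granules, were all above that level, so these markers did not decide between the labels. Immunoglobulin genes made up 27.5% and 27.3% of gene counts at 3 h against 4.34% and 4.31% at 5 h. They had been at 7.0% and 6.96% at 0 h and 9.81% and 9.78% at 1 h, which sets the 3 h libraries apart. For this reason each gene list is also given for 5 h against 1 h, a comparison added after the data were seen. The part of the immunoglobulin share in the other results was not tested.

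Less RNA was recovered per spike-in at 5 h. Non-immunoglobulin counts per ERCC count were 1144 and 1127 at 3 h and 738 and 774 at 5 h, a ratio of 0.666 (log2 -0.59). The fall had been steeper before, from 4105 and 4207 at 0 h to 1543 and 1537 at 1 h. In wild type the 3 to 5 h ratio was 0.660, but the level was far lower, with 51.5 and 52.8 non-immunoglobulin counts per ERCC count at 0 h. ERCC counts were 0.0226% and 0.0221% of all counts at 0 h under the Nat10-deficient label and 1.83% and 1.79% in wild type. Spike-in values were therefore compared only within a genotype, and whether every sample received the same amount was not tested. Immunoglobulin counts per ERCC count were 434 and 423 at 3 h and 33.5 and 34.9 at 5 h, 12.5-fold lower at 5 h. In these bulk samples fewer cells of a type and less RNA per cell cannot be told apart. The spike-in scale rests on few molecules. The 13 ERCC species with at least 100 counts in each library had log2 ratios between 0.71 and 1.52 (SD 0.25), and a single species gave 46.1% of ERCC counts at 3 h. The implied shift between the scales ranged from -1.01 to -0.20 over these species. Standard errors and calls against the spike-ins take the summed ERCC counts as exact and leave this range out. Small changes on that scale are therefore less certain than their standard errors show.

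**Figure D1:**
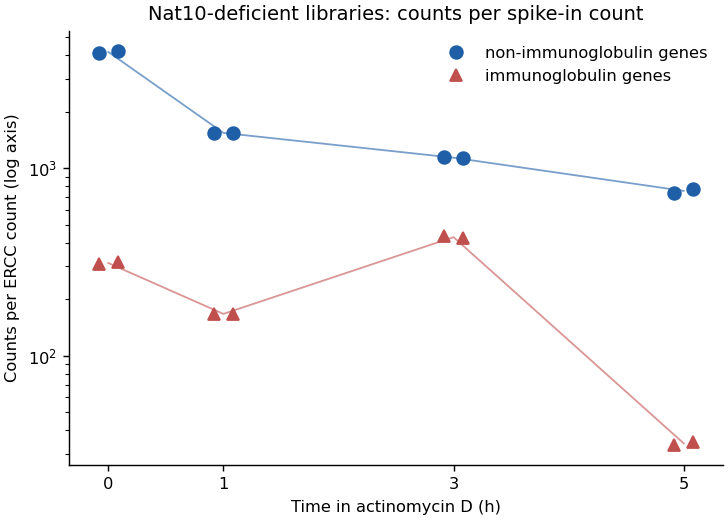
Counts per ERCC count (log axis) against hours in actinomycin D in the 8 libraries labelled Nat10-deficient; points are single libraries and lines join the means of 2. Non-immunoglobulin counts fall at every time, while immunoglobulin counts are highest at 3 h (434 and 423) and lowest at 5 h (33.5 and 34.9).

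Most genes lost RNA between 3 and 5 h and a smaller set gained share. On the spike-in scale 14204 genes (56.6% of those tested) fell and 2805 (11.2%) rose. On the share scale 9678 (38.6%) fell and 6027 (24.0%) rose, with a median log2 change of -0.17 over all genes tested against -0.76 on the spike-in scale. These percentages are the background for the 3 to 5 h list counts below. DESeq2 called fewer genes higher on the spike-in scale, 1765, and 12869 lower. By edgeR the 6027 genes that gained share divide into 2805 that also rose against the spike-ins, 2028 with no call there and 1194 that fell there. A further 3332 genes fell against the spike-ins with no call in share. The split in share depends on the scaling: 38.4% of calls were upward with non-immunoglobulin counts, 48.8% with TMM (7674 higher and 8062 lower) and 51.6% with median-ratio size factors (8194 and 7677). Over 9213 genes at 8 CPM or more at 3 or 5 h, the median shift of a gene's log2 change was 0.25 with TMM, 0.32 with median-ratio size factors and 0.11 with scaling on long-lived reference mRNAs.

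Losses were also the larger changes among genes at 8 CPM or more. Among 9213 genes at 8 CPM or more at 3 or 5 h, 2084 fell at least 2-fold in share and 313 rose at least 2-fold. At 4-fold or more the counts were 801 and 26. Against the spike-ins 3646 fell at least 2-fold and 55 rose. The 9213 genes include immunoglobulin genes, and 9040 remain without them. Of 245 immunoglobulin genes tested, 212 fell in share (median -3.06), so part of these large falls is theirs. Over all genes tested, 6874 fell and 3224 rose at least 2-fold in share, and 4267 and 2444 at least 4-fold. Against the spike-ins 10029 fell and 2209 rose at least 2-fold. Most of the large rises were thus in genes below 8 CPM, and 3582 genes tested had no count at 3 h and 2899 none at 5 h.

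**Figure D2:**
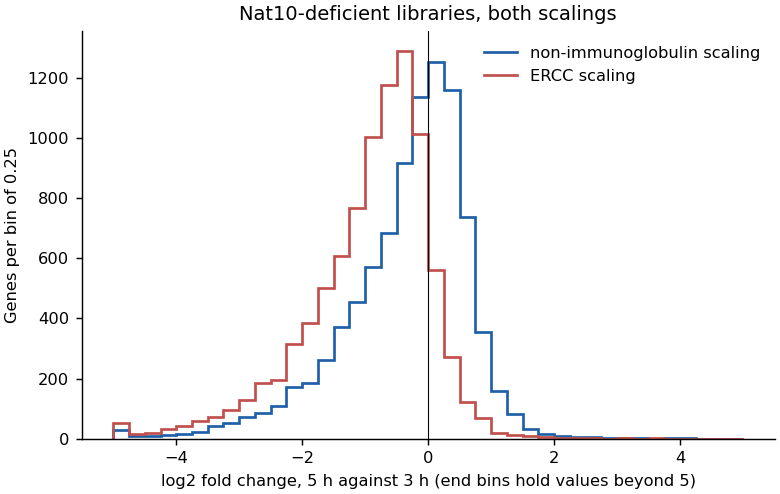
Number of genes (bins of 0.25) against log2 fold change from 3 to 5 h, for 9040 non-immunoglobulin genes at 8 CPM or more, on the share scale (blue) and the spike-in scale (red). The same distribution sits 0.59 lower on the spike-in scale, and its left tail is longer than its right.

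Immediate-early mRNAs, many of which encode transcription factors and feedback inhibitors made within minutes of a stimulus, were lost together. In share 46 of 48 fell and none rose, and all 48 fell against the spike-ins, with medians of -2.00 and -2.59. From 1 to 5 h all 48 fell in share (median -2.65; background 40.3% lower and 22.2% higher). Fosb, a partner of Jun in the AP-1 factor, was at 1872 and 1874 CPM at 0 h, then 1154 and 1173 at 1 h, then 552 and 552 at 3 h, then 70.1 and 74.7 at 5 h. Its log2 change from 3 to 5 h was -2.93 ± 0.033 (adjusted p = 1.87e-199). The files of a time nearly coincide and no time overlaps another.

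Fos, its relative, was at 163 and 162 CPM at 3 h, then 35.7 and 36.6 at 5 h (log2 -2.17 ± 0.044). Jun went from 591 and 582 to 180.3 and 184 CPM (-1.69 ± 0.029), and Junb from 237 and 248 to 92 and 88.2 (-1.43 ± 0.036). All AP-1 members named here were thus lower at 5 h in both files. Egr1, a zinc-finger factor induced by growth signals, had started at 3006 and 3020.1 CPM and went from 178 and 182 at 3 h to 44.7 and 46.3 at 5 h (-1.98 ± 0.041). Nr4a1, an orphan nuclear receptor, fell furthest of the list, from 16.2 and 18.9 to 0.217 and 0.204 CPM (-6.31 ± 0.24). Myc, the growth-promoting factor, changed less, from 73.9 and 66.3 to 28.9 and 27.1 CPM (-1.32 ± 0.066).

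Feedback inhibitors in the list fell as well. Zfp36, which binds AU-rich elements and speeds decay, went from 297 and 293 to 82.5 and 79.9 CPM (-1.86 ± 0.036). Btg2, which recruits the deadenylase complex, went from 335 and 317 to 101 and 96.1 CPM (-1.73 ± 0.032). Tnfaip3, an inhibitor of NF-kappaB signalling, went from 62.2 and 53.1 to 6.28 and 5.98 CPM (-3.23 ± 0.10). The smallest called fall was that of Zfp36l2, a second protein of the Zfp36 family, with 34.8 and 37.2 CPM at 3 h, then 27.4 and 26.6 at 5 h (-0.41 ± 0.082). Rhob and Gadd45a were not called in share, at log2 -0.71 (adjusted p = 0.068) and -0.14 (adjusted p = 0.529).

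The canonical AU-rich nonamer TTATTTATT was searched on the transcript strand of GENCODE 3′ untranslated regions (1 transcript per gene, GRCm38). It is present in 12 of the 47 immediate-early genes with such a region (25.5%), in 7.29% of 20252 genes, and in 1 of 51 ribosomal protein genes. The nonamer contains the shorter AU-rich core ATTTA. The first site of 3 members is shown, with 10 bases on each side and the nonamer in capitals, because their losses differ in size.
Fos, chr12:85477103-85477131 (plus strand): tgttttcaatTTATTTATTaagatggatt
Zfp36, chr7:28376951-28376979 (minus strand): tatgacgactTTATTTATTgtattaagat
Zfp36l2, chr17:84184914-84184942 (minus strand): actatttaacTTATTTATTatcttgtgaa
The same 9 letters thus stand in mRNAs whose log2 changes were -2.17, -1.86 and -0.41. A match describes the letters and is neither a tested site nor a cause.

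Stem cell identity genes, the receptors and transcription factors by which LT-HSCs are recognised and kept, lost share in 35 of 40 and rose in 2 (median -1.72). Against the spike-ins 37 fell and none rose (median -2.31), and from 1 to 5 h 36 fell in share (median -2.23). Of the 12 stem cell markers, 11 fell. Summed over the list, the level was 2918 and 2993 CPM at 3 h and 1439 and 1428 at 5 h.

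Among surface proteins, Kit, the receptor for stem cell factor, went from 247 and 257 to 156 and 160.1 CPM (log2 -0.67 ± 0.036). Procr, a stem cell surface receptor for protein C, went from 72.1 and 67.1 to 15.6 and 14.1 CPM (-2.23 ± 0.081). Slamf1, the CD150 antigen, went from 10.9 and 17.1 to 0.65 and 0.544 CPM (-4.54 ± 0.26). Ly6a, the Sca-1 antigen, had been at 50.5 and 47 CPM at 0 h and was at 145 and 149 at 3 h, then 12.8 and 14.3 at 5 h (-3.43 ± 0.069). Its level was thus far higher at 3 h than at either end.

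Among transcription factors, Gata2 went from 67 and 63.7 to 7.65 and 9.92 CPM (log2 -2.89 ± 0.089). Meis1, a Hox cofactor, went from 53 and 51.3 to 7.87 and 9.72 (-2.56 ± 0.093), and Hlf, a leucine zipper factor of stem cells, from 22.3 and 23 to 3.61 and 2.72 (-2.84 ± 0.15). Unlike Ly6a, these 3 were also lower at 3 h than at 0 h. Runx1 went from 57.6 and 60.2 to 28.2 and 28.5 CPM (-1.05 ± 0.074). The 2 members that gained share were Abcg2, the transporter behind dye exclusion, with 96.7 and 98.1 and then 131 and 131 CPM (0.43 ± 0.051), and Tal1 (0.49 ± 0.19). Against the spike-ins Abcg2 fell, at log2 -0.16 ± 0.057.

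Several other regulatory groups fell or were mixed. Cyclins and their kinases lost share in 18 of 20 (median -0.81) and interferon response genes in 31 of 35 (median -1.05). Of apoptosis regulators 13 of 27 fell, 2 rose and 12 had no call (median -0.75), beside 38.6% lower among all genes tested. Of p53 targets 15 of 25 fell and 4 rose (median -0.96). Cdkn1a, the p21 cell cycle inhibitor, went from 82.6 and 81.9 to 24.2 and 17.9 CPM (-1.97 ± 0.070). Mcl1, a short-lived survival factor, went from 47.8 and 53.1 to 13.7 and 12.9 (-1.92 ± 0.086). Cdk4, a kinase of the cyclin list, gained share (0.60 ± 0.027), with no call against the spike-ins (0.011 ± 0.037, adjusted p = 0.833).

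The integrated stress response was split, with 15 of 24 lower and 7 higher in share. Ppp1r15a, the feedback phosphatase subunit of this pathway, went from 223 and 234 to 52.5 and 58 CPM (-2.04 ± 0.045). The pathway's target Asns, asparagine synthetase, rose from 396 and 402 to 658 and 649.7 CPM (0.71 ± 0.029). Chaperones were split as well. Of 28 cytosolic and mitochondrial chaperones 17 rose and 6 fell in share (median 0.35). Hspd1, the mitochondrial chaperonin, was at 1312 and 1326 CPM at 1 h, then 1317 and 1314 at 3 h, then 2587 and 2615 at 5 h (0.98 ± 0.021). It also rose against the spike-ins (0.40 ± 0.033). The heat-inducible Dnajb1 went from 246 and 241 to 63.2 and 65.4 CPM (-1.92 ± 0.038), and inducible Hspa1a changed by -2.70 ± 0.22.

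mRNAs for the translation machinery gained share. Of 80 cytosolic ribosomal protein genes 66 rose and 3 fell (Rps18 and Rps27 among them), with a median of 0.28, and from 1 to 5 h 73 rose (median 0.41). Against the spike-ins the direction turned, with 63 lower, 3 higher and a median of -0.30, which is still above the -0.76 of all genes. Many of these genes have processed pseudogenes with near-identical sequence, so their single counts are uncertain. Rps2 was at 3079 and 3084 CPM at 0 h, then 3601 and 3592 at 3 h, then 5983 and 5915 at 5 h (log2 0.73 ± 0.018 in share and 0.14 ± 0.031 against the spike-ins). Rpsa went from 1140.1 and 1134 to 1653 and 1631 CPM (0.53 ± 0.023), with no call against the spike-ins (-0.057 ± 0.034, adjusted p = 0.129).

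Translation factors also gained share, with 30 of 37 higher and 5 lower in share (median 0.41) and a median of -0.17 against the spike-ins. Eef2, the elongation factor that moves the ribosome along, went from 1864 and 1864 to 2706 and 2718 CPM (0.54 ± 0.020, and -0.046 ± 0.033 against the spike-ins). Eif4b, a cofactor of the initiation helicase, was at 508 and 519 CPM at 1 h, then 381 and 384 at 3 h, then 698 and 686 at 5 h (0.85 ± 0.029). Eif3b, a subunit of the initiation scaffold, gained most of the 4 factors with the smallest p, from 60.5 and 67.1 to 177 and 174 CPM (1.45 ± 0.057, and 0.87 ± 0.061 against the spike-ins). Its 3 h value lay below those at 0 h (68.9 and 71.1), so that time is low for Eif3b and Eif4b.

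Ribosomal protein mRNAs are known to begin with a run of pyrimidines (the TOP motif), which couples them to growth signals. The run sought was a C followed by at least 6 C or T, beginning within 10 bases of the RefSeq start (GRCm38.p6, transcript strand). Of 59 ribosomal protein genes matched, 29 (49.2%) had such a run at any of their promoters. Counted by single promoter, 12.2% of 32851 RefSeq promoters had it. These percentages have different units and cannot be set side by side. The 30 bases around the start are shown for 4 genes that gained share, with such a run in capitals where it was found.
Rpl7a, chr2:26910797-26910826 (plus strand): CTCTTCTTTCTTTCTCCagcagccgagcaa
Rack1, chr11:48800350-48800379 (plus strand): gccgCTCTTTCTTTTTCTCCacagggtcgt
Rps2, chr17:24720053-24720082 (plus strand): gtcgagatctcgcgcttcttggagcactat
Eif3b, chr5:140419295-140419324 (plus strand): ggcgcgcggtgacttctgggagtcggaagc
Their log2 changes in share were 0.52, 0.72, 0.73 and 1.45, so genes with and without the letters in this window gained. Over all expressed genes with a matched promoter, the median change was -0.20 in 992 with the run and -0.10 in 5521 without.

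Energy and protein turnover genes also gained share. Nuclear-encoded oxidative phosphorylation genes rose in 51 of 63 and fell in 1 (median 0.43), and proteasome genes rose in 29 of 31 with none lower (median 0.27). Both medians turned on the spike-in scale, to -0.16 and -0.32. Atp5b, the catalytic subunit of ATP synthase, went from 3737 and 3759.9 to 5720.1 and 5674 CPM (0.60 ± 0.018), with 0.017 ± 0.031 against the spike-ins (adjusted p = 0.667). Psmd3, of the proteasome's regulatory particle, went from 219 and 205 to 449 and 436 CPM (1.06 ± 0.035) and rose against the spike-ins as well (0.47 ± 0.043). Fatty acid oxidation genes rose in 16 of 25 and fell in 3 (median 0.22). Glycolytic genes differed, with 14 of 24 lower and 8 higher. Pkm, pyruvate kinase, went from 1585 and 1627 to 775 and 782 CPM (-1.05 ± 0.022). The list of long-lived reference mRNAs did not gain share as a whole. Of its 39 genes 17 rose and 20 fell (median -0.18, beside -0.17 over all genes tested), and 38 fell against the spike-ins.

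Ribosome biogenesis genes rose in share in 30 of 44 and fell in 9 (median 0.31; -0.28 against the spike-ins). Npm1, a nucleolar chaperone, went from 824 and 816 to 1423 and 1394 CPM (0.78 ± 0.024). Of RNA modification enzymes 9 of 25 rose and 6 fell, beside 24.0% higher and 38.6% lower among all genes tested. Nsun2, which methylates cytidines in tRNA and mRNA, went from 166 and 171 to 370.5 and 369.8 CPM (1.13 ± 0.037). Cell cycle genes leaned upward in share, with 23 of 40 S phase genes higher and 11 lower (median 0.19). Of 40 genes of G2 and M phase 22 were higher and 11 lower (median 0.22). From 1 to 5 h these medians were -0.03 and -0.02, and against the spike-ins -0.39 and -0.36. Cenpa, the centromeric histone, went from 242 and 228 to 488 and 484 CPM (1.05 ± 0.036).

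**Figure D3:**
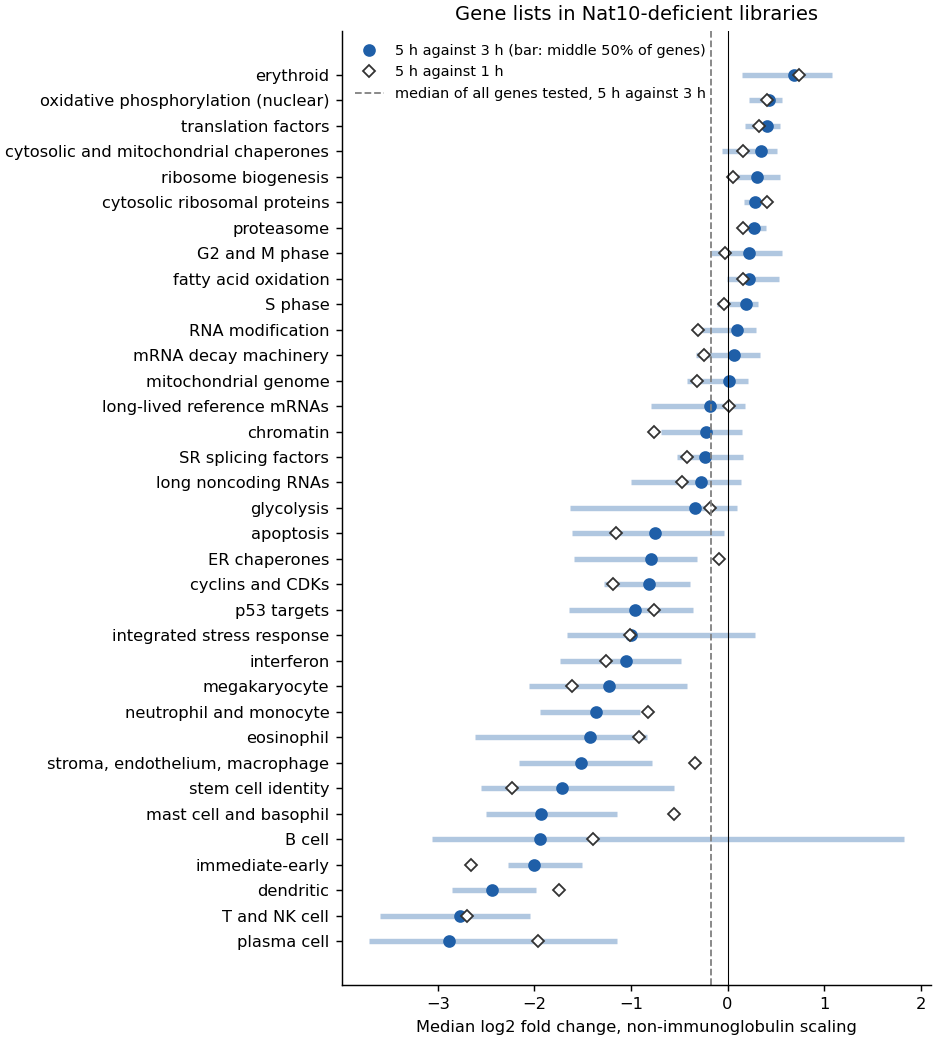
Median log2 fold change in share for 35 gene lists in the libraries labelled Nat10-deficient, for 5 h against 3 h (circles, with the middle 50% of genes as bars) and 5 h against 1 h (diamonds); the dashed line is the median of all genes tested, -0.17. Immediate-early genes sit at -2.00 and -2.65 and erythroid genes at 0.69 and 0.74, while mast cell genes sit at -1.93 and -0.55.

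The mitochondrial genome gave a mixed picture. Of its 13 mRNAs 5 fell and 4 rose in share (median 0.02, and -0.31 from 1 to 5 h). Over all genes tested 38.6% fell and 24.0% rose, so these counts do not set the list apart. Subunit mRNA mt-Nd1 of complex I went from 1975 and 1953 to 832 and 813 CPM (-1.26 ± 0.021) and mt-Cytb of complex III from 2997 and 2948 to 1657 and 1699.9 (-0.82 ± 0.019). The ribosomal RNA mt-Rnr2 rose, from 7182 and 7224 to 10212 and 10124 CPM (0.50 ± 0.016). Mitochondrial genes together were 2.03% of non-immunoglobulin counts in both files at 3 h and 2.11% and 2.10% at 5 h.

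Erythroid genes had the highest median change in share of the 35 lists. In share 17 of 23 rose and 4 fell (median 0.69), and against the spike-ins 10 rose and 7 fell (median 0.11). From 1 to 5 h 16 rose and 5 fell in share (median 0.74), but against the spike-ins 4 rose and 12 fell (median -0.29). Their summed level was 9001 and 9005 CPM at 3 h and 19269 and 19128 at 5 h. Car1 and Car2 encode carbonic anhydrases of red cell precursors. Car1 was at 1891 and 1837 CPM at 1 h, then 2084 and 2063 at 3 h, then 5078 and 5017 at 5 h (log2 1.28 ± 0.020 in share and 0.70 ± 0.033 against the spike-ins). Car2 was at 3976 and 3942, 3739.9 and 3795 and 8177 and 8137 CPM at these times (1.11 ± 0.017 and 0.53 ± 0.031).

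Further members of the list did the same. Rhd, the Rhesus blood group antigen, went from 371 and 376 to 945 and 928 CPM (1.33 ± 0.029) and Blvrb, biliverdin reductase, from 514 and 493 to 1181 and 1169 (1.22 ± 0.027). Gata1, the master factor of the lineage, went from 152 and 148 to 241 and 244 CPM (0.69 ± 0.042). Genes of late red cells fell: Slc4a1, the band 3 anion exchanger, changed by -2.15 ± 0.12, Alas2 of haem synthesis by -0.87 ± 0.22, and the globin Hbb-bs by -1.01 ± 0.17. Globin genes are near-identical copies, so their counts are uncertain.

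Markers of other blood lineages moved between these sorts. Plasma cell genes fell in share in 23 of 25 and rose in 1 (median -2.88), and 212 of 245 immunoglobulin genes tested fell and 6 rose (median -3.06). Gene segments of this family share sequence, so single segments are uncertain. The summed level of the plasma cell list was 8660 and 8641 CPM at 0 h, then 12119 and 12080.5 at 1 h, then 49131 and 48898 at 3 h, and fell back to 9416 and 9433 at 5 h. The 3 h files stand alone on the high side.

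Jchain, which joins antibody units, was at 8619 and 8539 CPM at 1 h, then 40451 and 40163 at 3 h, then 4405 and 4397 at 5 h (-3.20 ± 0.013). Sdc1, the plasma cell antigen CD138, was at 186 and 198, 463 and 454 and 32.8 and 34.9 CPM at these times (-3.76 ± 0.043). Xbp1, the factor of secretory cells, had no such peak: it was at 702 and 689 CPM at 0 h, then 685 and 679 at 1 h, then 682 and 691 at 3 h, then 73.5 and 76.4 at 5 h (-3.19 ± 0.032). ER chaperones, which secretory cells hold in quantity, fell in 25 of 29 from 3 to 5 h (median -0.79) and from 1 to 5 h fell in 15 and rose in 8 (median -0.09).

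Granulocyte genes were also high at 3 h. Summed mast cell and basophil markers were 3258 and 3208 CPM at 1 h, then 8503 and 8520 at 3 h, then 3145 and 3078 at 5 h. In this list 19 of 20 fell from 3 to 5 h. Their median was -1.93, or -1.80 with genes at 0 counts held at 3 counts. Prss34, a basophil protease, was at 165 and 164 CPM at 0 h, then 597 and 588 at 1 h, then 4051 and 3985 at 3 h, then 1329.9 and 1298 at 5 h (-1.61 ± 0.022), so its 5 h level was above that at 1 h. Epx, eosinophil peroxidase, followed the same order, with 412 and 396, 1798 and 1784 and 1389 and 1388 CPM at 1, 3 and 5 h (-0.37 ± 0.024). Neutrophil and monocyte genes fell in 25 of 29 (median -1.36); Mpo, myeloperoxidase, was at 7905 and 7878, 14980.5 and 14891 and 8993 and 8972 CPM at these times (-0.73 ± 0.016).

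T and NK cell genes fell in 23 of 24 (median -2.77) and dendritic cell genes in all 16 (median -2.44), and their summed levels were 635 and 647 CPM and 2428 and 2428 CPM at 3 h against 220.2 and 209 and 515 and 508 at 5 h. Cd74, the invariant chain of antigen presentation, went from 1302 and 1309 to 154 and 153 CPM (-3.09 ± 0.026). Megakaryocyte genes fell in 15 of 22 and rose in 1 (median -1.23), and genes of stroma, endothelium and macrophages fell in 14 of 21 and rose in 2 (median -1.51). The B cell list was wide, with 16 of 23 lower, 5 higher and a middle 50% from -3.06 to 1.83; its antigen receptor gene Cd79a went from 252 and 257 to 31 and 37.4 CPM (-2.89 ± 0.049). Of the fixed markers, 7 of 7 plasma cell and 5 of 6 B cell genes fell, and no plasma cell marker was under 1 CPM at 3 h.

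**Figure D4:**
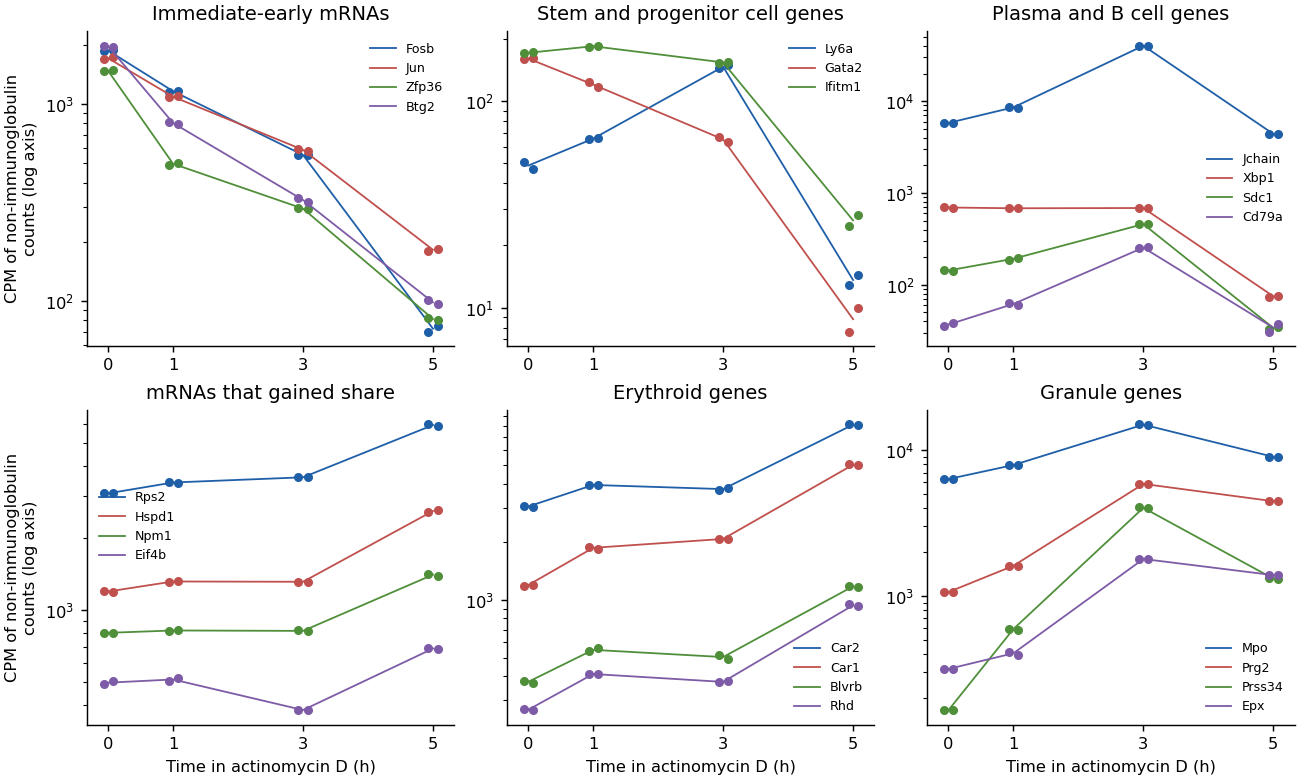
CPM of non-immunoglobulin counts (log axis) at 0, 1, 3 and 5 h for 23 genes in 6 groups; points are single libraries labelled Nat10-deficient and lines join the means of 2. Immediate-early genes fall at each step, plasma cell and granule genes other than Xbp1 are highest at 3 h, and the erythroid genes are highest at 5 h.

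Few transcripts vanished: of 8767 genes at 8 CPM or more at 3 h, 8 had no count at 5 h, and none of 7715 at that level at 5 h was without a count at 3 h. Ccn1, a secreted matrix protein induced by serum, was at 52 and 49 CPM at 0 h, then 23.7 and 24.5 at 1 h, then 11.5 and 13.3 at 3 h. At 249 counts at 3 h against 0 at 5 h it was at least 118-fold lower, with 5 h held at 3 counts over both files. Chst1, a sulfotransferase, was at least 113-fold lower (238 counts against 0). Cd2, a T cell adhesion receptor, was at least 98.5-fold lower (207 against 0), and Slc25a29, Tmem38a, Adgrg5, Rtkn and Edar at least 80.4-fold to 87.6-fold lower.

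A further 3 falls among the largest rest on 1 or 2 counts at 5 h. Osgin1 had 221 counts at 3 h and 2 at 5 h, a 153-fold fall with a 95% counting interval from 43.2 to 1311. Cd300lb and P2ry10 had 237 and 180 counts at 3 h and 1 each at 5 h. This interval covers counting error only.

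The 12 genes with the largest gain in share were chosen by their 5 h level over their 3 h level, which favours genes that are low at 3 h. All 12 had a lower mean CPM at 3 h than at both 0 h and 1 h, which is given as a description. For Crnde the means at 3 h and 0 h were nearly equal, at 1.70 and 1.73 CPM, and the files overlapped. Tmem64, a membrane protein, was at 15.5 and 15 CPM at 0 h, then 16.4 and 18.9 at 1 h, then 1.43 and 3.62 at 3 h, then 26.5 and 23.6 at 5 h (3.29 ± 0.19). Tmem65 was at 12.6 and 13.4, 8.13 and 8.9, 0.306 and 0.881 and 9.31 and 7.2 CPM at these times (3.75 ± 0.33), and Slc8a1, a sodium-calcium exchanger, at 10.7 and 12.1, 7.98 and 8.37, 1.02 and 0.783 and 8.52 and 8.29 (3.21 ± 0.29). From 1 to 5 h the changes of Tmem65 and Slc8a1 were -0.049 and 0.039.

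Mmp14, a membrane metalloproteinase, and Carm1, an arginine methyltransferase, rose above every earlier time in both files. Tmem64, Ptprv and Crnde did so too. Mmp14 went from 7.61 and 7.01 CPM at 1 h, then 4.59 and 4.31 at 3 h to 25.3 and 24.7 at 5 h (2.49 ± 0.17). Carm1 went from 7.83 and 6.79 and 2.96 and 3.52 to 19 and 19.5 CPM (2.56 ± 0.19). Ptprv, Crnde, Plekhm2, Agfg1, Herpud2, Zmynd19 and Herc3 make up the rest, with log2 changes from 2.52 to 4.14.

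Transcript features followed the change loosely. Among 8375 expressed genes with a feature, the median change in share was 0.04 in the shortest quartile of exonic length and -0.06, -0.12 and -0.23 in the next 3. Processed pseudogenes, whose reads may come from their parent genes, had a median of 0.48 (41 genes, 28 higher and 3 lower). The 37 long intergenic noncoding RNAs had -0.42 and 115 zinc-finger genes with Zfp symbols -0.37 (15 higher and 64 lower), against -0.11 over all 8375. Among long noncoding RNAs, Neat1 of nuclear paraspeckles went from 203 and 207 to 52.7 and 48 CPM (-2.03 ± 0.048) and Malat1 of nuclear speckles from 216 and 206 to 92 and 97.1 (-1.16 ± 0.043). Pvt1 rose from 19.1 and 16.4 to 38.1 and 34.4 CPM (1.03 ± 0.12). Counting ignored strand, so antisense and overlapping genes cannot be told apart.

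The AU-rich nonamer followed length as well. Genes with no copy had a median change of -0.10 (7492 genes), with 1 copy -0.30 (445) and with 2 or more -0.19 (121). Their median 3′ untranslated regions were 955, 2139 and 3264 bases long. Within regions of 800 to 2000 bases the medians were -0.16 without (2406 genes) and -0.22 with a copy (160). Both medians differ far less than the middle 50% of genes spreads, which ran from -1.02 to 0.23 with a copy.

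The 3 to 5 h change differed from that of wild type, which shares no library with it. By the interaction term 8254 genes (32.9%) changed more upward and 5527 (22.0%) more downward in the libraries labelled Nat10-deficient, with a median difference of 0.39. This split depends on the scaling: TMM gave 7360 and 6305 genes, with a median of 0.21. DESeq2 gave 7423 and 5324 (median 0.34). Over 8375 non-immunoglobulin genes at a mean of 8 CPM or more, the median change was -0.11, and -0.21 in wild type. The median of 0.39 thus also reflects genes with low counts. Immediate-early genes were more downward in 38 of 48 and more upward in 1 (median -1.32; wild type median -0.44). For Fosb the difference was -2.29 ± 0.049 (wild type log2 -0.64) and for Fos -1.84 ± 0.060 (-0.32). Stem cell genes were more downward in 24 of 40 and more upward in 7 (median -1.10). For Ly6a the difference was -3.92 ± 0.084. For Meis1 it was smaller, at -0.40 ± 0.18 (adjusted p = 0.0486), and Kit was not called different, at -0.017 ± 0.071 (adjusted p = 0.98).

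Lists that gained share from 3 to 5 h were compared in the same way. Ribosomal protein genes had a wild type median of 0.42 against 0.28, with 35 of 80 more downward and 7 more upward. Oxidative phosphorylation genes were more upward in 30 of 63 and more downward in 6, proteasome genes in 20 of 31 and 1, and G2 and M phase genes in 26 of 40 and 3. Erythroid genes were more upward in 17 of 23 and more downward in 1 (median 0.92; wild type median -0.29). Immunoglobulin genes were more downward in 210 of 245 (median -3.90). In wild type their share of gene counts went from 55.2% and 54.9% at 3 h to 66.7% and 66.4% at 5 h, opposite to the libraries labelled Nat10-deficient. Genes at 8 CPM or more at 3 h and without a count at 5 h numbered 248 of 10205 in wild type and 8 of 8767 here, but the 5 h libraries held 4548746 and 3702177 non-immunoglobulin counts in wild type against 13855318 and 14719308. Zeros are more likely at the lower depth, so these counts cannot be set against each other between genotypes. Within wild type the depth at 3 h was similar to that at 5 h, with 4248048 and 4031521 non-immunoglobulin counts. The part of depth in the wild type zeros was not tested.

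**Figure D5:**
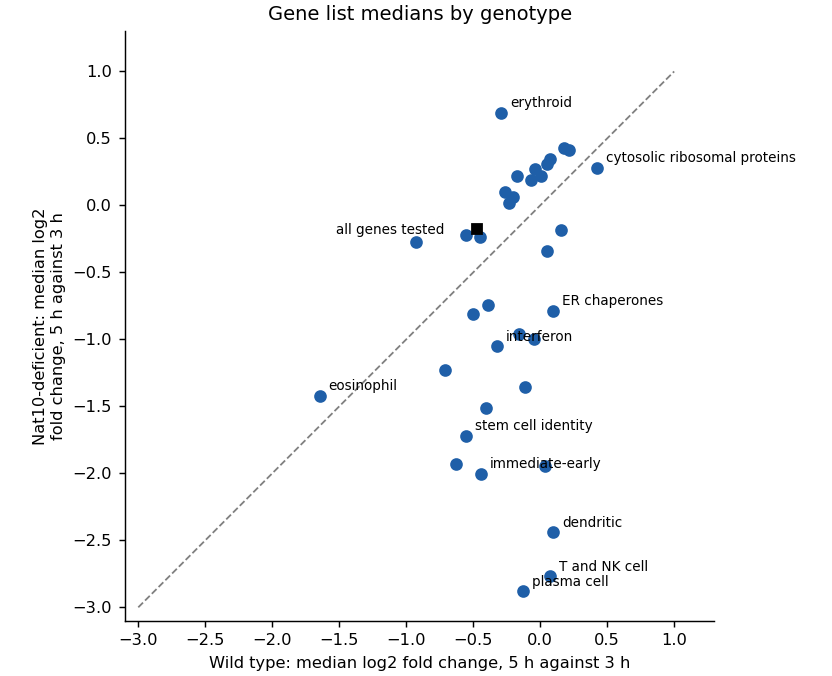
Median log2 fold change in share from 3 to 5 h for 35 gene lists (circles) and all genes tested (square), in libraries labelled Nat10-deficient (vertical axis) against wild type (horizontal axis); the dashed line marks equal change. Erythroid genes lie above the line (0.69 against -0.29), and plasma cell, T and NK cell, dendritic, stem cell and immediate-early genes lie below it.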

How the data were processed

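RNA was sequenced in 16 libraries, of which 4 carry the main comparison and all 16 the estimate of spread. The deposited values are counts of whole fragments per gene over exonic length, which the authors made with featureCounts 1.6.3, unstranded, per the file headers; STAR, DESeq2 and GRCm39 are named in the submitters' processing notes. Each table has 92 ERCC rows and 55414 gene rows, of which 433 are immunoglobulin genes. Symbols came from a GENCODE table for GRCm38 and matched 52133 identifiers (94.1%); sequences came from GENCODE and RefSeq of that build.

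Deposited counts were fitted with edgeR 4.0.16 in R 4.3.3 (quasi-likelihood, a mean for each of 8 groups, filterByExpr, threshold 0.05), with ERCC sums or non-immunoglobulin gene counts as library size and no TMM factor. The genotype difference is an interaction term. Alternatives were DESeq2 1.42.0, other scalings and filters, and leaving out each library. A zero is bounded at 3 counts. The members, gene lists and tests were chosen with earlier results of these data known.

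Named genes were the 12 largest falls and the 12 largest rises in share at 8 CPM or more with both files on one side, up to 4 per list by smallest p, Nat10, the 10 with the highest CPM, and the 6 largest interactions in each direction; the text gives a selection, and a few items are not reported here. Other list members named here (such as Fos, Egr1, Kit, Procr, Meis1, Gata1 and Slc4a1) were chosen after their values were seen. Files of a group differed by a chi-square per degree of freedom of 1.70 at 3 h and 1.81 at 5 h, where counting noise alone gives 1; they were counted as 2 files, and whether they are separate cultures was not tested. Products of amplification are not independent molecules, so intervals cover counting error only. The code was tested on simulated data.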

Additional observations from a re-analysis of the deposited data

Results flagged for a closer look

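The change from 3 to 5 h differed between the libraries labelled Nat10-deficient and wild type by the interaction test for 8254 genes upward and 5527 downward. The genes with the largest differences at 8 CPM or more are nearly all ones with no count in a group, so fold changes are not given for the interaction and counts over 2 files are given in their place.

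Of 5 genes among the largest downward differences, 3 have 0 counts in wild type at 3 h and the other 2 have 0 counts in the 5 h libraries labelled Nat10-deficient. C4b of the complement system had 294 and then 95 counts under the Nat10-deficient label and 0 and then 95 in wild type (adjusted p = 4.27e-32), Rbm12b2 171 and 82 against 0 and 69 (1.37e-22), and Lrg1 204 and 41 against 0 and 28 (4.35e-16). Adgrg5 had 171 and 0 against 63 and 185 (4.04e-37), and Edar 169 and 0 against 13 and 37 (3.03e-23).

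The 6 largest upward differences all have 0 counts in wild type at 5 h, where the libraries held 4548746 and 3702177 non-immunoglobulin counts against 13855318 and 14719308 under the Nat10-deficient label. The wild type libraries at 3 h held 4248048 and 4031521. Ptprv had 9 and then 233 counts under the Nat10-deficient label and 118 and then 0 in wild type (adjusted p = 7.2e-37). Plekhm2 had 25 and 229 against 74 and 0 (5.65e-28), Rdh10 60 and 269 against 135 and 0 (2.38e-33), and Zbtb26 89 and 259 against 201 and 0 (2.9e-34). Cep135 had 202 and 552 against 213 and 0 (3.29e-42), and Crnde 34 and 322 against 50 and 0 (4.86e-22).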

How the results depend on the processing

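Of 171 named genes under 13 alternative settings, 2 values lost their call and 1 turned: mt-Nd5 was 0.0064 with median-ratio size factors. Counts of genes stayed within 1.5 times except for DESeq2, which called 1765 genes higher on the spike-in scale against 2805. Leaving out each library gave 1978 to 2640 genes higher and 13121 to 13554 lower on the spike-in scale, 4951 to 5461 and 8699 to 8899 in share, and 7349 to 7941 and 5039 to 5322 for the interaction. With 5 h set against 1 h, list medians turned to -0.31 (mitochondrial genome), -0.30 (RNA modification), -0.033 (S phase), -0.023 (G2 and M phase), -0.24 (mRNA decay machinery) and 0.011 (long-lived reference mRNAs). With TMM they turned to 0.013 (SR splicing factors), 0.066 (long-lived reference mRNAs) and 0.022 (chromatin). The cause was not tested. ERCC counts of 8560 to 19021 per library limit the spike-in scale.

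Same-numbered files did not deviate together (r = 0.020 over 9143 genes). The files of a group may be technical, and r would then be low with or without pairing. The check therefore does not decide whether the numbers pair the libraries. With a replicate block 2651 genes were higher and 14101 lower on the spike-in scale, 5869 and 9579 in share, and 8161 and 5507 for the interaction.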
